A study of Saccharomyces cerevisiae with 22 samples.

Results

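Mitochondrial ribosomal protein genes were taken as all genes on the array whose symbol is MRPL, MRPS, MRP or RSM followed by a number. The rule used names only and no measured value, and it found 66 genes among 6373 features, each with 1 probe printed as 2 spots. The gene annotation places 37 of them in the large subunit and 28 in the small subunit, and the remaining gene, *MRP8*, carries the name although its product is not known as a ribosomal protein. Every array held a mutant in 1 dye and wild type reference RNA in the other, and all values here are log2 ratios of mutant over reference unless a sentence says otherwise. Of the 66 genes, 65 exceeded the background by 2.6 SD in both channels of all 22 arrays, and none was saturated. The exception was *RSM28*, which did so in 21 arrays for the mutant and 17 for the reference.

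The mitochondrial ribosome translates the few, very hydrophobic proteins encoded in mitochondrial DNA, which are core subunits of the respiratory chain and the ATP synthase. Nearly all of its own proteins are encoded in the nucleus, translated in the cytosol and imported, with Var1 as the exception in yeast. Many of the corresponding mRNAs are known targets of the RNA-binding protein Puf3, and their amounts are known to follow the need for respiration rather than the output of cytosolic ribosomes. Some of the proteins have counterparts in all ribosomes, some only in bacterial ribosomes, and others occur in mitochondria alone.

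The study profiled *S. cerevisiae* mutants of factors that act on or with the repeated C-terminal tail (CTD) of the largest RNA polymerase II subunit. Deletions removed Ctk1 (the kinase of serine 2 of the CTD), Set2 (a histone methyltransferase that binds the phosphorylated CTD), Eaf3 and Rco1 (subunits of the Rpd3S deacetylase), Rtt103 (a 3′ end factor), and Rrp6 and Lrp1 (nuclear exosome factors). Temperature sensitive alleles were *sen1-1*, in a helicase of early termination, and *pcf11-2* and *pcf11-ts2*, in a cleavage factor subunit. The study states that these grew at the same temperature as the other strains, a permissive one. These 10 strains grew in SC medium with glucose to early mid-log phase. *ctk1*Δ was also profiled in YPD, and *rpb1-S2A*, in which serine 2 of the CTD repeats is replaced, in YPD alone. Of the 12 profiles, 10 had 2 arrays from separate cultures with the dyes swapped (replicate a with the mutant in Cy3, replicate b in Cy5), and each *pcf11* allele had 1 array from a single culture. The reference was wild type BY4742 RNA, labelled as the same pool on every array but extracted by either of 2 protocols. Profiles with the same extraction share it, and no spread between wild type cultures enters the p-values.

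The labels give BY4742, a strain of mating type α, for all strains, yet 4 profiles had the marker levels of an a-type strain: *pcf11-2*, *pcf11-ts2*, *sen1-1* and *rpb1-S2A*, whose label itself gives mating type a. The study's strain list places these 4 in BY4741, of mating type a. In these 4 the a-specific genes had log2 ratios of 1.77 to 4.61 and the α-specific genes of −5.81 to −2.04. *MET17*, deleted in BY4741, was at −4.90 to −3.99 there. *LYS2*, deleted in BY4742, was at 2.71 to 3.02 in them and also at 3.13 and 2.06 in *ctk1*Δ in SC and YPD. The reference RNA of these 4 profiles and of *ctk1*Δ in YPD was extracted by a high-throughput (HTP) protocol, and that of the other 7 by a standard one. In the 7 deletion profiles grown in SC and in *ctk1*Δ in YPD, the deleted gene had log2 ratios of −4.06 to −2.46.

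Over the 12 profiles the 66 genes moved little in most mutants and upward in a few. Their median log2 ratio was 0.47 in *pcf11-2*, 0.31 in *rpb1-S2A*, 0.29 in *pcf11-ts2*, 0.15 in *sen1-1* and 0.13 in *ctk1*Δ in YPD. It lay between −0.01 and 0.06 in *ctk1*Δ in SC, *set2*Δ, *eaf3*Δ, *rco1*Δ and *rtt103*Δ, and at −0.08 in *lrp1*Δ and −0.13 in *rrp6*Δ. The median over all 6373 features ran from −0.008 in *set2*Δ to 0.014 in *pcf11-2*. Replicate arrays gave nearly the same member median, with a pooled SD of 0.019. For single members the replicate SD was 0.0811 in the median and at most 0.538, and the range over the 12 profiles was 0.26 to 1.53 with a median of 0.73. Most members were highest in *pcf11-2* (43 of 66) or *rpb1-S2A* (14), and 37 were lowest in *rrp6*Δ. The shares of all features with their extremes in these profiles are not given here. All features also spread unequally, with an SD of 0.48 in *pcf11-2*, 0.58 in *rpb1-S2A*, 0.29 in *rrp6*Δ and 0.20 in *eaf3*Δ. The counts therefore cannot be read as a trait of the members. The heat map of all members and the plot of their distribution in each profile show the high and the low profiles.

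**Figure D1:**
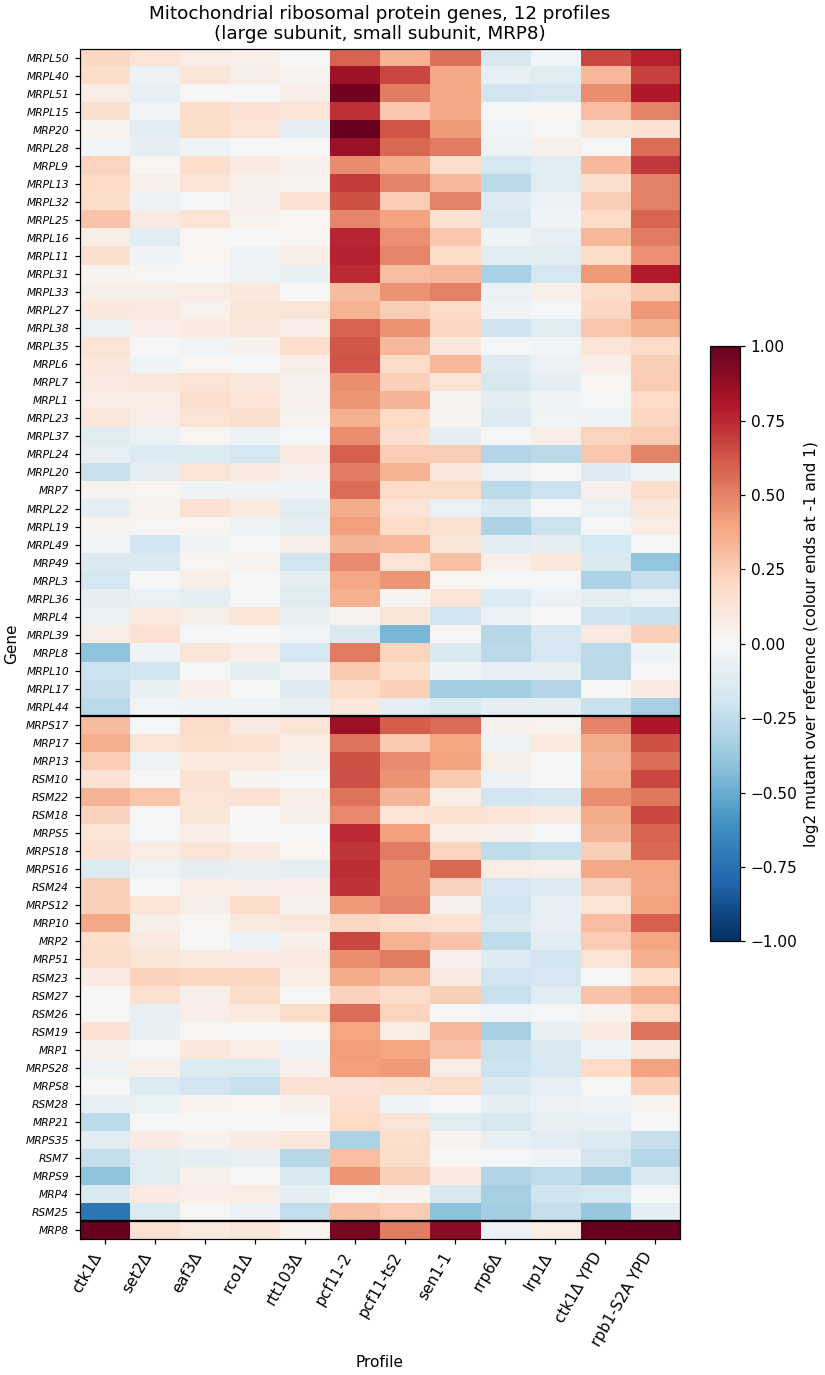
Log2 ratio of mutant over reference of each of the 66 genes (vertical axis) in each of the 12 profiles (horizontal axis), with red for higher and blue for lower in the mutant and the colour ending at −1 and 1. Black lines separate the 37 large subunit genes, the 28 small subunit genes and *MRP8*. The columns of *pcf11-2*, *pcf11-ts2* and *rpb1-S2A* are mostly red, and the column of *rrp6*Δ mostly pale blue, with 7 of 66 genes above 0.

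**Figure D2:**
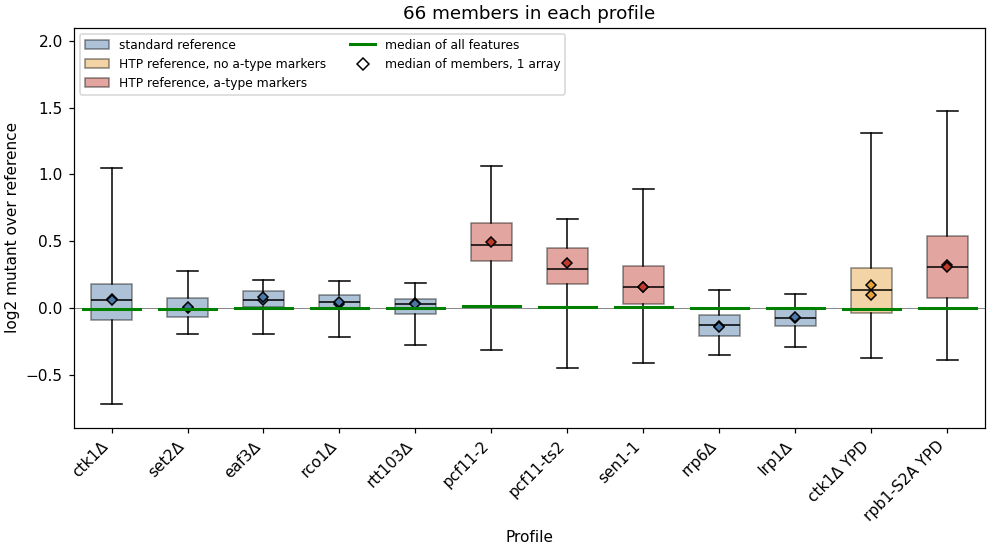
Log2 ratio of the 66 genes in each profile, as a box from the lower to the upper quartile with a line at the median and whiskers to the lowest and highest gene. Diamonds give the median of the members on each array, green lines the median of all 6373 features, and colours the extraction protocol of the reference and the a-type markers. The boxes of *pcf11-2* (median 0.47) and *pcf11-ts2* (0.29) lie wholly above 0, and that of *rrp6*Δ (−0.13) wholly below it.

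A gene was called changed when its Benjamini-Hochberg adjusted p from limma's moderated test, over all 6373 features of a profile, was under 0.05 and its fold change exceeded 1.7. Of the 66 members, 9 were called in at least 1 profile and 57 in none. The share of all features called in at least 1 profile is not given here, so the 9 cannot be read as many or few. Since shifts of the members were mostly smaller than 1.7-fold, counts by the adjusted p alone are given beside those of the full rule, each with the percentage of all 6373 features that passed it. The standard error of a member's log2 ratio was 0.06 in the median for profiles of 2 arrays and 0.09 for those of 1 array.

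The members were highest in *pcf11-2*. There 63 of 66 genes lay above 0, 7 were called higher (10.6%) and none lower, where 5.54% of all features were called higher. With no fold minimum 54 of the 66 rose (81.8%, against 20.4% of all features) and 1 fell (1.52%, against 17.1%). The 7 were *MRP20*, *MRPL51*, *MRP8*, *MRPL28*, *MRPS17*, *MRPL40* and *MRPL11*. *MRP20* encodes a large subunit protein at the exit of the polypeptide tunnel. On the *pcf11-2* array its log2 ratio was 1.08, and the fitted value, in which the dye effect estimated from the 10 profiles of 2 arrays is removed, was 1.06 (standard error 0.08, 2.09-fold, limma's adjusted p 1.59e-06). *MRPL51*, a large subunit protein of mitochondria alone, read 1.06 on the array and was fitted at 0.97 (standard error 0.06, adjusted p 1.91e-07). The other 4 large and small subunit genes called had fitted values of 0.77 (*MRPL11*, of the stalk base) to 0.86 (*MRPS17* and *MRPL28*), with *MRPL40*, another protein of the tunnel exit, at 0.85. *MRPL16* (0.76, 1.69-fold) and *MRPL31* (0.75, 1.68-fold) stayed just under the fold minimum. The count of 7 became 9 with the authors' processed ratios, 11 with median centring of each array in place of loess, and 12 with a smaller background offset. *MRPL11* stood at 1.71-fold and passed out of the calls in 6 of the fits that left out an array of another strain.

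The gene that went the other way in *pcf11-2* was *MRPS35*, a small subunit protein found in mitochondria alone, at −0.31 (standard error 0.09, adjusted p 0.0162). Its array value was −0.38, against 0.24 on the array of *pcf11-ts2*. In *pcf11-ts2* the shift had the same direction with lower values: 63 of 66 genes lay above 0, none was called, where 4.03% of all features were called in either direction, and by the adjusted p alone 34 rose (51.5%, against 12.3%) and 1 fell (1.52%, against 9.3%). *MRPL40* was highest at 0.66 (array value 0.63, standard error 0.07, adjusted p 4.69e-05), followed by *MRP20* at 0.63. *MRPL39*, a large subunit protein with a bacterial counterpart, was lowest at −0.45 (array value −0.44, adjusted p 0.00242). It read −0.15 on the *pcf11-2* array as well, where its adjusted p was 0.221. Each allele rests on 1 culture, so the difference between the alleles has no replicate check.

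In *rpb1-S2A* grown in YPD, 5 members were called higher (7.58%) and none lower, where 7.23% of all features were called higher. The members' share was thus near that of all features, and without *MRP8* it was 6.15%. The adjusted p alone was passed by 44 that rose (66.7%, against 33.6%) and 7 fell (10.6%, against 30.4%). The 5 were *MRP8*, *MRPS17*, *MRPL51*, *MRPL31* and *MRPL50*. *MRPS17*, a small subunit protein found in all ribosomes, read 0.88 and 0.74 on the 2 arrays (fit 0.81, standard error 0.06, adjusted p 1.94e-07). *MRPL51* read 0.72 and 0.88 (fit 0.80, adjusted p 4.74e-09), *MRPL31*, of mitochondrial ribosomes alone, 0.89 and 0.70 (fit 0.79), and *MRPL50*, the counterpart of a bacterial large subunit protein, 0.86 and 0.69 (fit 0.78). These 8 array values ran from 0.69 to 0.89, near the fold minimum. The count became 3 with the processed ratios, where *MRPS17* (0.62) and *MRPL50* (0.736) were not called, and 3 with median centring. *MRPS17* also lost its call without replicate a (0.713), and *MRPL50* without replicate b (0.759). Among the genes lower in this strain were *MRP49*, a large subunit protein of mitochondria alone, with −0.34 and −0.44 (fit −0.39, adjusted p 0.000478), and *RSM7*, of the small subunit's head, with −0.13 and −0.44 (fit −0.29, adjusted p 0.000133). The mutant RNA of replicate a came from the standard extraction and that of replicate b from the HTP extraction, and the member medians of the arrays were 0.32 and 0.31.

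For *ctk1*Δ in the same medium, 1 member (*MRP8*) was called higher and none lower, against 6.79% of all features called higher. By the adjusted p alone 30 rose (45.5%, against 30.8%) and 10 fell (15.2%, against 27.6%). After *MRP8* the highest was *MRPL50*, with 0.67 on both arrays (standard error 0.08, adjusted p 1.64e-05), and the lowest *RSM25*, with −0.38 and −0.37. The arrays differed more than those of other strains, with member medians of 0.10 in replicate a and 0.17 in replicate b, and without replicate a 2 members were called. Set against each other within the fit, *rpb1-S2A* exceeded *ctk1*Δ in YPD in 61 of 66 members, with a median difference of 0.18. None passed the full rule (1.98% of all features in either direction), and by the adjusted p alone 16 were higher in *rpb1-S2A* (24.2%, against 4.63%) and 0 lower (against 8.3%). *MRPL28* differed most, by 0.57 (standard error 0.08, adjusted p 0.000411): it read −0.08 and 0.06 in *ctk1*Δ and 0.50 and 0.62 in *rpb1-S2A*. *MRP49* had the opposite sign with a difference of −0.25 (adjusted p 0.155). These strains also differ in mating type. The mutant RNA of *rpb1-S2A* replicate b came from the HTP extraction, and that of both *ctk1*Δ arrays in YPD from the standard one.

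For *sen1-1*, 54 of 66 members lay above 0, and 1 (*MRP8*) was called higher and none lower, against 5.21% of all features called higher. By the adjusted p alone 31 rose (47%, against 28.5%) and 4 fell (6.06%, against 23.5%). *MRPS16*, the counterpart of a bacterial small subunit protein, read 0.44 and 0.72 (fit 0.58) and was the highest after *MRP8*. *RSM25*, with −0.41 and −0.42 (standard error 0.04, adjusted p 2.69e-06), and *MRPL17*, a large subunit protein of mitochondria alone with −0.43 and −0.27 (fit −0.35, adjusted p 6.71e-05), were the lowest. Against the mean of the *pcf11* alleles, which share the a-type markers and the HTP reference, *sen1-1* was lower in most members: 9 of 66 differences lay above 0 and the median was −0.24. None passed the full rule, against 5.24% of all features in either direction. By the adjusted p alone 33 were lower in *sen1-1* (50%, against 15.2%) and 1 higher (1.52%, against 18.1%). The gene that was higher was *MRPL39*, by 0.31 (standard error 0.08, adjusted p 0.0134). *RSM25* had the largest difference, −0.69 (standard error 0.06, adjusted p 1.71e-06), followed by *MRPL17* with −0.56 (adjusted p 5.44e-05), and *MRP20* differed by −0.42 (adjusted p 0.00173).

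In *ctk1*Δ grown in SC the genes spread in both directions around a median of 0.06. *MRP8* alone was called, where 7.28% of all features were called higher, and by the adjusted p alone 18 members rose (27.3%, against 32.8%) and 11 fell (16.7%, against 28.5%), so both shares lay below those of all features. The lower end held *RSM25* (−0.72), *MRPL8* (−0.43 and −0.37 on the arrays) and *MRPS9* (−0.34 and −0.46). *RSM22*, a small subunit component with a methyltransferase-like domain, was among the higher ones with 0.40 and 0.28 (fit 0.34, adjusted p 0.00047), and *MRPS17* had 0.22 and 0.41 (fit 0.31, adjusted p 0.000928). Against *set2*Δ, the methyltransferase that binds the product of the kinase, *ctk1*Δ was higher in 41 of 66 members with a median difference of 0.05. *MRP8* passed the full rule (5.1% of all features higher), and by the adjusted p alone 7 were higher (10.6%, against 19.6%) and 5 lower (7.58%, against 15.8%). Their reference RNA was extracted in the same way, while the mutant RNA was extracted by different protocols. The strains also differed at the marker *LYS2*, which read 3.13 in *ctk1*Δ in SC and −0.05 in *set2*Δ.

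The remaining deletions around the CTD left the members near the reference. None was called in *set2*Δ (1.62% of all features in either direction), *eaf3*Δ (0.785%), *rco1*Δ (0.91%) or *rtt103*Δ (1.27%). On the adjusted p alone 2 rose (3.03%, against 15.1%) and 4 fell (6.06%, against 11.6%) in *set2*Δ. In *eaf3*Δ 1 rose (1.52%, against 8.02%) and 1 fell (1.52%, against 7.16%), and in *rco1*Δ 1 rose (1.52%, against 10.6%) and 1 fell (1.52%, against 8.28%). In *rtt103*Δ 2 rose (3.03%, against 7.14%) and 2 fell (3.03%, against 12.3%). *MRPS8*, a small subunit protein found in all ribosomes, was the lowest member in both Rpd3S deletions: its array values were −0.20 and −0.19 in *eaf3*Δ (adjusted p 0.00693) and −0.21 and −0.23 in *rco1*Δ (adjusted p 0.0027), and −0.12 and −0.16 in *set2*Δ (adjusted p 0.0273). In *rtt103*Δ the same gene read 0.17 and 0.12 (adjusted p 0.0267). *RSM23*, a GTP-binding small subunit protein, was the highest in both Rpd3S deletions at 0.21 and 0.20, without passing the test (adjusted p 0.0681 and 0.0592), and *RSM22* the highest in *set2*Δ with 0.41 and 0.14 (fit 0.27, adjusted p 0.00658). *MRPL49*, a large subunit protein with a bacterial counterpart, was the lowest there with −0.26 and −0.12 (fit −0.19, adjusted p 0.0102). In *rtt103*Δ the extremes were *RSM26*, of mitochondrial ribosomes alone, at 0.19 (arrays 0.38 and −0.01) and *RSM7* at −0.28 (arrays −0.11 and −0.45). For both genes replicate a exceeded replicate b in all 10 profiles of 2 arrays, a shift to which the dye term of the fit applies.

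In the exosome deletions the members lay below the reference. In *rrp6*Δ 7 of 66 were above 0 and none was called, against 2.23% of all features in either direction. With no fold minimum 25 fell (37.9%, against 15% of all features) and 0 rose (against 17.2%). In *lrp1*Δ 14 were above 0, none was called (1.26% in either direction), 9 fell (13.6%, against 10%) and 0 rose (against 11.7%). The falls were shallow: the lowest was *MRPL17* in both, with −0.34 and −0.36 in *rrp6*Δ (fit −0.35, standard error 0.05, adjusted p 0.000141) and −0.23 and −0.36 in *lrp1*Δ (fit −0.30, adjusted p 0.000827). *RSM25* read −0.38 and −0.32 in *rrp6*Δ (adjusted p 2.76e-05), *MRP4*, a small subunit protein found in all ribosomes, −0.30 and −0.37 (adjusted p 0.00206), and *MRPL39* −0.33 and −0.22 (adjusted p 0.00327). The highest were *RSM18*, a small subunit protein with a bacterial counterpart, in *rrp6*Δ at 0.13 (adjusted p 0.377) and *MRP49* in *lrp1*Δ at 0.10 (adjusted p 0.368), which was 0.208 without replicate a and −0.00067 without replicate b.

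The same deletion, *ctk1*Δ, was profiled in SC and YPD. The difference of YPD minus SC had a median of 0.05 over the members and lay above 0 in 44 of 66. The median was 0.103 without replicate a in YPD, 0.0193 without replicate b and 0.0116 with median centring. None passed the full rule (2.75% of all features in either direction), and by the adjusted p alone 9 were higher in YPD (13.6%, against 8.61%) and 0 lower (against 7.91%). *MRPS16* differed most. It read −0.21 and −0.05 in SC and 0.46 and 0.29 in YPD, a difference of 0.51 (standard error 0.09, adjusted p 0.00223). *MRPL51* read −0.08 and 0.22 in SC and 0.38 and 0.55 in YPD (difference 0.39, adjusted p 0.000906). The medium, the extraction of the mutant and the extraction of the reference differed together between these profiles, so they cannot be told apart.

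*MRP8* (YKL142W) had the largest range of all members, 1.53, and stood first in 4 of the 12 profiles. Its array values were 1.03 and 1.07 in *ctk1*Δ in SC, 1.02 and 1.59 in *ctk1*Δ in YPD, 1.57 and 1.38 in *rpb1-S2A*, 1.01 and 0.78 in *sen1-1*, 0.96 in *pcf11-2* and 0.50 in *pcf11-ts2*. In the exosome and Rpd3S deletions, in *set2*Δ and in *rtt103*Δ they lay between −0.14 and 0.21. It was called higher in 5 profiles, by 2.07-fold in *ctk1*Δ in SC (adjusted p 2.18e-06), 2.48-fold in YPD (3.08e-07), 2.78-fold in *rpb1-S2A* (6.92e-08), 1.86-fold in *sen1-1* (1.31e-05) and 1.92-fold in *pcf11-2* (0.000378). Without replicate a of *sen1-1* its value there was 0.748 and the call, with it the only call of that profile, was lost. *MRP8* also exceeded *set2*Δ in *ctk1*Δ by 0.90 (standard error 0.15, adjusted p 0.000476), whereas the ribosomal proteins gave no call in that contrast. Without *MRP8*, 0 of 65 members were called in *ctk1*Δ in either medium and in *sen1-1*, 4 in *rpb1-S2A* and 6 in *pcf11-2*.

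*RSM25* (YIL093C), a small subunit protein of mitochondrial ribosomes alone, was the member most often lower. It fell by the adjusted p in 7 profiles and rose in 2, and its replicates lay close together. In *ctk1*Δ its array values were −0.68 and −0.77 in SC (fit −0.72, standard error 0.04, 1.65-fold lower, adjusted p 1.62e-08) and −0.38 and −0.37 in YPD, and the difference between the media was 0.34 (adjusted p 0.00157). They were −0.41 and −0.42 in *sen1-1*, −0.38 and −0.32 in *rrp6*Δ, −0.21 and −0.29 in *rtt103*Δ, −0.22 and −0.24 in *lrp1*Δ and −0.16 and −0.11 in *set2*Δ. In *rpb1-S2A* it read −0.09 on both arrays and did not pass (adjusted p 0.0639). In the *pcf11* alleles it read 0.29 and 0.27, and these were the highest values of the gene. Its value in *ctk1*Δ stayed just under the fold minimum and passed it with a smaller background offset (−0.875).

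The members with the narrowest ranges were *RSM28*, *MRPL4* and *MRP4*. *RSM28*, a small subunit protein of mitochondria alone and the member that was not above background on every array, spanned −0.09 to 0.17 in the fit and was the 1 member that passed the adjusted p in no profile. Its arrays of *rtt103*Δ read 0.34 and −0.24, farther apart than this span of fitted values. *MRPL4*, at the tunnel exit, spanned −0.22 to 0.13, and *MRP4* −0.33 to 0.08, with −0.04 and 0.07 on the arrays of *pcf11-2* and *pcf11-ts2*, where most other members were high. *MRPS12* encodes a small subunit protein of the decoding centre. Its array values were 0.52 in *pcf11-2*, 0.39 in *pcf11-ts2*, 0.29 and 0.52 in *rpb1-S2A*, −0.35 and −0.01 in *rrp6*Δ and 0.24 on both arrays of *ctk1*Δ in SC.

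**Figure D3:**
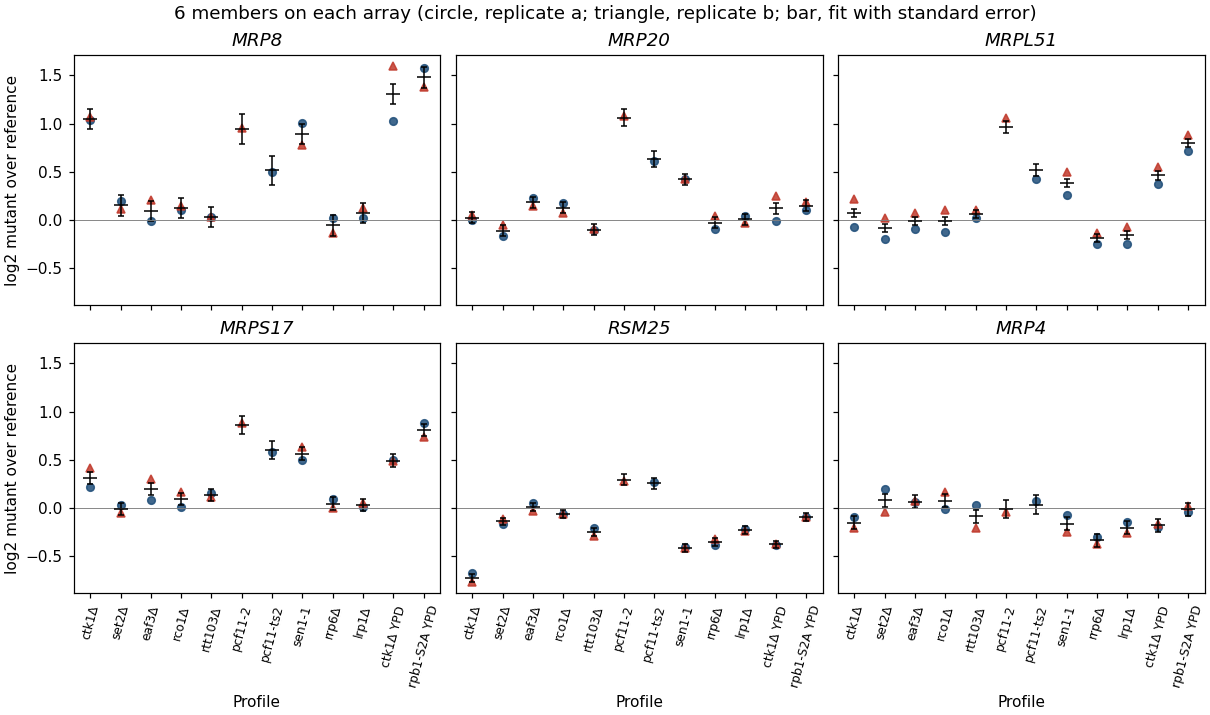
Log2 ratio of mutant over reference of 6 members (panels) in the 12 profiles (horizontal axis), with circles for replicate a, triangles for replicate b and bars for the fitted value with its standard error. *MRP8* sits near or above 0.5 in 6 profiles and near 0 in the others. *RSM25* is lowest in *ctk1*Δ at −0.72 and above 0 in the *pcf11* alleles, and *MRP4* stays between −0.33 and 0.08 in the fit.

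Both subunits had medians of the same sign in these mutants. In *pcf11-2* the median was 0.49 over the 37 large subunit genes and 0.43 over the 28 small subunit genes. By the adjusted p alone 32 and 21 genes were higher there (86.5% and 75%, against 20.4% of all features). In *pcf11-ts2* the medians were 0.27 and 0.29, in *rpb1-S2A* 0.25 and 0.39, in *sen1-1* 0.17 and 0.12, and in *rrp6*Δ −0.13 and −0.16. By the class of the protein, read from the synonyms of the gene table, the medians in *pcf11-2* were 0.44 for the 27 genes whose protein occurs in all ribosomes, 0.52 for the 13 with bacterial counterparts and 0.47 for the 24 of mitochondria alone. In *rpb1-S2A* they were 0.26, 0.37 and 0.23. No difference between subunits or classes was tested.

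Neighbouring genes were looked up in the gene table of assembly R64 because read-through from small nucleolar RNA genes was a question of the study. None of the 66 members had a small nucleolar RNA gene as its nearest neighbour on either side. Only the adjacent gene on each side was looked up, so a small nucleolar RNA gene farther away would not be seen. *RSM10*, of the small subunit, has YDR042C at its end on the other strand, which read 3.77 in *ctk1*Δ in SC and 4.16 in *sen1-1*, where *RSM10* read 0.15 and 0.26. Before the start of *MRPL17*, on the same strand, lies *NRD1*, which encodes a termination factor and read 1.48 and 1.54, while *MRPL17* read −0.23 and −0.35. *RSM19*, which encodes another small subunit protein, and *MRPS12* lie next to each other on the same strand, and their log2 ratios were 0.14 and 0.24 in *ctk1*Δ in SC and 0.33 and 0.04 in *sen1-1*. Another 3 members (*MRP4*, *MRPL19* and *MRPL51*) overlap an open reading frame without a gene name. The one that overlaps *MRPL51* on the other strand, YPR099C, read 0.65 in *sen1-1*, where *MRPL51* read 0.38.

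Of 13 mitoribosomal proteins that go by other names, 12 were measured, and their medians were 0.48 in *pcf11-2*, 0.32 in *pcf11-ts2*, 0.25 in *rpb1-S2A*, 0.09 in *sen1-1*, 0.02 in *ctk1*Δ in YPD, where that of the members was 0.13, and −0.07 in *rrp6*Δ. By the adjusted p alone 9 of the 12 rose in *pcf11-2* (75%, against 20.4% of all features) and 4 fell in *rrp6*Δ (33.3%, against 15%). *PET123*, a small subunit protein, was the 1 gene called, at 0.97 in *pcf11-2* (standard error 0.07, adjusted p 3.14e-07).

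Among the other genes of mitochondrial translation the pattern was mixed. By the adjusted p alone, 6 of 9 genes for mitoribosome assembly and rRNA modification rose in *pcf11-2* (66.7%, against 20.4% of all features). In *pcf11-ts2* 7 of them rose (77.8%, against 12.3%). *MAM33*, an acidic matrix protein, was called in *pcf11-2* (0.88) and *rpb1-S2A* (0.84), and *MTG1*, a GTPase of assembly, in *rpb1-S2A* (0.90). Of 9 translation factors, *MEF1*, an elongation factor, was called higher in *pcf11-2* (1.06). *MRF1*, the release factor, was called lower in *ctk1*Δ in SC (−1.15) and YPD (−1.12), in *rpb1-S2A* (−1.41) and in *rtt103*Δ (−1.32). *RRF1*, which recycles ribosomes, was called higher in *rrp6*Δ (2.14) and *lrp1*Δ (1.46), the profiles in which the members lay lowest. Of 15 mitochondrial aminoacyl-tRNA synthetases, *ISM1* was called lower in *rtt103*Δ (−1.25) and *ctk1*Δ in YPD (−0.82). *MSW1* was called lower in *pcf11-2* (−0.94), *ctk1*Δ in SC (−0.85) and *rpb1-S2A* (−0.81), and *NAM2* higher in *pcf11-2* (0.91). In *rrp6*Δ all 15 lay below 0 with 9 lower by the adjusted p alone (60%, against 15% of all features). The 16 mRNA-specific activators of mitochondrial translation had medians of −0.03 to 0.20 and no call in any profile.

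Genes of respiration and of cytosolic ribosomes were ordered differently over the profiles. The 33 nuclear genes for oxidative phosphorylation had a median of 0.40 in *ctk1*Δ in SC. There 27 rose (81.8%, against 32.8% of all features) and 0 fell (against 28.5%) by the adjusted p alone. *QCR9*, a subunit of the cytochrome bc1 complex, was called there (0.90). The median of the 33 genes was −0.34 in *sen1-1*, where 20 fell (60.6%, against 23.5%) and 0 rose (against 28.5%). It was −0.19 in *rpb1-S2A*, where *COX4*, a cytochrome c oxidase subunit, was called lower (−1.29). The members stood at 0.15 in *sen1-1* and 0.31 in *rpb1-S2A*. Between the media the members' median of *ctk1*Δ differed by 0.05 and that of these 33 genes by −0.45. Of 11 regulators of mitochondrial genes, *HAP4*, the activating subunit of the Hap complex, was the 1 called: 1.40 in *pcf11-2*, 1.03 in *ctk1*Δ in SC, 0.98 in *pcf11-ts2* and 0.81 in *rpb1-S2A*. The 126 cytosolic ribosomal protein genes had medians of −0.18 to −0.002, below those of the members in all profiles except *rrp6*Δ and *lrp1*Δ, and the 51 ribosome biogenesis genes medians of −0.36 in *ctk1*Δ in SC, −0.27 in *rpb1-S2A* and 0.18 in *rrp6*Δ. All of these comparisons between lists are descriptions of medians.

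**Figure D4:**
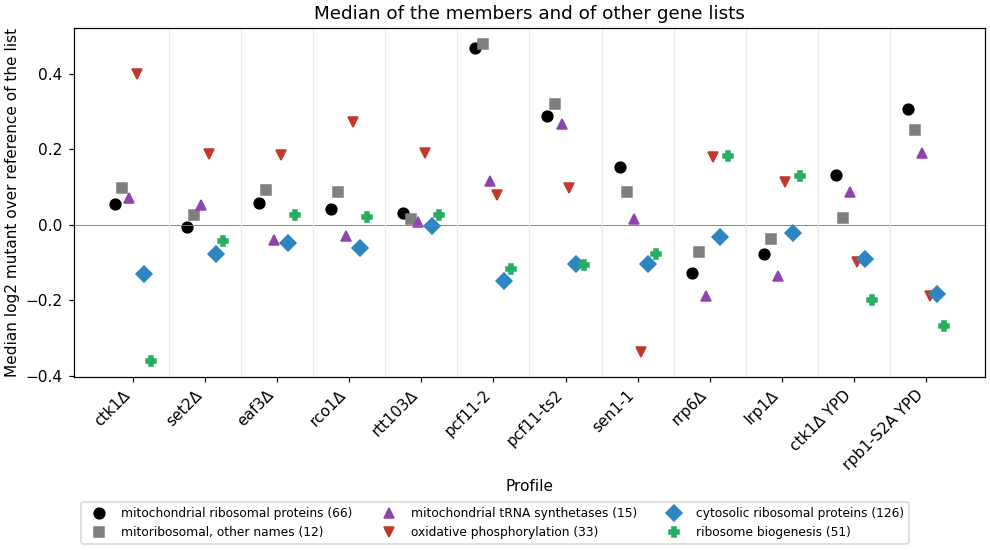
Median log2 ratio of mutant over reference of the 66 members and of 5 other gene lists (markers, with the number of genes measured in brackets) in each of the 12 profiles. The black circles of the members and the grey squares of the mitoribosomal proteins under other names are the highest of the 6 markers in both *pcf11* alleles and in *rpb1-S2A*. The red triangles of oxidative phosphorylation lead in *ctk1*Δ at 0.40 and are lowest in *sen1-1* at −0.34.

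Strain markers and extraction protocols also differed between the profiles, and their part in the members' medians was not tested. The 4 profiles with a-type markers had member medians of 0.15 to 0.47, and the other 8 of −0.13 to 0.13. The 5 profiles whose reference came from the HTP extraction had medians of 0.13 to 0.47, and the 7 with the standard reference of −0.13 to 0.06, so the groups overlapped in neither split. Among the 10 profiles in SC, the 6 whose mutant RNA came from the HTP extraction had medians of 0.04 to 0.47 and the 4 with the standard one of −0.13 to 0.03, again without overlap. Within the HTP reference, *ctk1*Δ in YPD, the 1 profile without a-type markers, had the lowest median (0.13). The members' level in each channel was also set beside the median of all features on the same array (log2 intensity, where the height itself depends on the probes and only its change between arrays can be read). In the reference channel this level was 0.33 to 0.53 on the 8 arrays with the HTP reference and 0.36 to 0.58 on the 14 with the standard one. In the mutant channel it was 0.79 in *pcf11-2*, 0.63 in *pcf11-ts2*, 0.72 and 0.78 in *rpb1-S2A* and 0.27 and 0.29 in *rrp6*Δ. Mutant levels of *sen1-1* (0.54 and 0.54) and *ctk1*Δ in YPD (0.50 and 0.55) did not exceed those of *rtt103*Δ (0.55 and 0.60). For *sen1-1* the reference level was 0.37 and 0.33, and for *ctk1*Δ in SC the mutant level was 0.34 and 0.35. Strain background, extraction of the mutant and of the reference, and mutation cannot be told apart in these profiles, since no a-type wild type was analysed here. For *rpb1-S2A* and *ctk1*Δ in YPD the medium also differed from that of the 10 profiles in SC, and its part cannot be told apart either. With each gene centred on its median over the 12 profiles in place of the reference, the medians of *pcf11-2*, *pcf11-ts2* and *rpb1-S2A* were 0.409, 0.22 and 0.239, and those of *sen1-1* and *ctk1*Δ in YPD 0.0811 and 0.0318. The medians of *rco1*Δ, *rtt103*Δ, *ctk1*Δ in SC and *eaf3*Δ changed sign to −0.0317, −0.0615, −0.00371 and −0.0112.

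**Figure D5:**
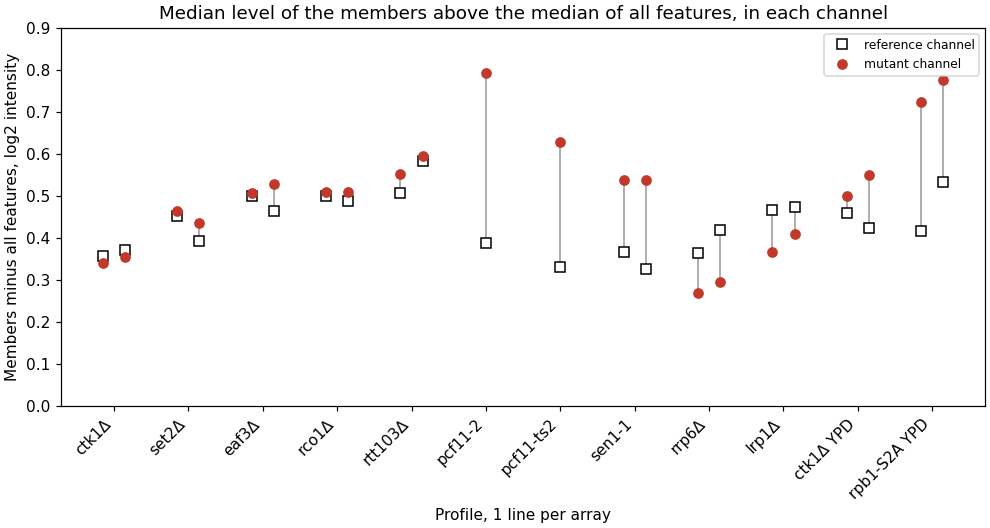
Median level of the 66 members minus the median of all 6373 features (log2 intensity) in the reference channel (open squares) and the mutant channel (red circles) of each of the 22 arrays, with a line joining the channels of an array. The reference squares stay between 0.33 and 0.58, and the mutant circles reach 0.79 in *pcf11-2* and fall to 0.27 in *rrp6*Δ.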

How the data were processed

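The arrays were 2-colour 70-mer arrays on which each probe was printed in 2 spots. For every spot the authors deposited foreground and background intensity from the scanner, not normalized, and processed log2 ratios that, per the labels, were made with limma (version 2.12.0 for 6 arrays, not given for 16). The processed columns also served as an alternative, and 6 of them, found to run reference over mutant by comparison with the intensities, were turned. Direction, groups, dyes and extraction protocols came from the labels.

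Mean intensities were corrected with limma's normexp method (offset 50) and normalized within each array by loess over the 12776 gene spots. Spots and probes of a gene were averaged, which gave 6373 features. Names came from the platform annotation, with current symbols from an R64 gene table. A linear model with 12 profile coefficients and a dye term was fitted to all 22 arrays in limma 3.58.1 (R 4.3.3), with moderated variances (residual degrees of freedom 9, prior 3.7) and Benjamini-Hochberg adjustment within a profile. The replicate letter is the dye, so this term is also the replicate block. The reference stands in for the control group, and the methods' comparison with a collection of wild type cultures was not made. On simulated data with 6373 features, 67 of 67 genes changed 2-fold in *ctk1*Δ and 62 of 67 in *pcf11-2* were called, and 3 and 2 of 67 changed 1.5-fold, with 0 false calls. By the adjusted p alone 64 and 52 of 67 genes changed 1.5-fold passed, with 17 and 9 false calls. The simulated noise was independent and normal, with each gene's SD taken from the fit. It held no error of the reference, the strain or the extraction, so the rate of false calls in the real arrays cannot be read from it. The number of arrays limits the precision.

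Members and gene lists were chosen with earlier results of these data known. The members named are those called in any profile, the highest and lowest of each profile, the 5 with the widest and 3 with the narrowest range, *MRP8*, and *MRPS12*, which tied with 3 others (nearest the median in 1 profile each) and came first among them by mean rank; genes of other lists are the called ones with the largest change, at most 3 a list. *MRPL8*, *MRPS9*, *MRPL16*, *MRPS16*, *RSM10*, *RSM19* and *MRPL19* were named after their values were seen, as were the genes whose log2 ratio in *ctk1*Δ differed between media. Promoter and 3′ motifs were not analysed here. Alternatives covered the source of the ratios, background, offset, normalization, dye term, dim features, arrays left out, the fold minimum, the zero point and the membership. The splits by extraction protocol, a-type markers and protein class were added after the data were seen.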

Additional observations from a re-analysis of the deposited data

Results flagged for a closer look

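The log2 ratio of *ctk1*Δ over reference differed between SC and YPD in 9 members by limma's contrast of the profiles. The limit was an adjusted p under 0.05 over all features with no fold minimum, and all 9 were higher in YPD. The difference in log2 ratio was 0.51 for *MRPS16* (adjusted p 0.00223), 0.461 for *MRPL50* (0.0192), 0.394 for *MRPL31* (0.0074) and 0.39 for *MRPL51* (0.000906). It was 0.345 for *MRPL37* (adjusted p 0.00316) and 0.334 for *MRPL38* (0.00469), of the large subunit, 0.287 for *RSM27* (0.0326), of the small subunit, and 0.243 for *MRPL17* (0.0321). *RSM25* differed by 0.344 (adjusted p 0.00157) and was below the reference in both media, at −0.721 in SC and −0.377 in YPD. *MRPS16* and *MRPL37* lay below 0 in SC (−0.133 and −0.121) and above it in YPD (0.376 and 0.223). The medium and both extraction protocols differ between the profiles, and their parts were not tested. No wild type array in either medium was analysed here, so a dependence of the deletion's effect on the medium was not tested.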

How the results depend on the processing

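Directions of the members' medians kept their sign under every alternative run for *pcf11-2*, *pcf11-ts2*, *sen1-1*, *rpb1-S2A*, *ctk1*Δ in YPD, *rrp6*Δ and *lrp1*Δ. With each gene centred on its median over the 12 profiles, those of *rco1*Δ (−0.0317) and *rtt103*Δ (−0.0615) turned negative, as did *ctk1*Δ in SC (−0.00371) and *eaf3*Δ (−0.0112), and the others were −0.0575 in *set2*Δ, 0.409 in *pcf11-2*, 0.22 in *pcf11-ts2*, 0.0811 in *sen1-1*, −0.206 in *rrp6*Δ, −0.143 in *lrp1*Δ, 0.0318 in *ctk1*Δ in YPD and 0.239 in *rpb1-S2A*. The causes of these and the following shifts were not tested unless the construction shows them.

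Without the fold minimum the members passing numbered 29 in *ctk1*Δ in SC, 6 in *set2*Δ, 4 in *rtt103*Δ, 2 each in *rco1*Δ and *eaf3*Δ, 55 in *pcf11-2*, 35 in *pcf11-ts2*, 35 in *sen1-1*, 25 in *rrp6*Δ, 9 in *lrp1*Δ, 40 in *ctk1*Δ in YPD and 51 in *rpb1-S2A*. In the contrasts they were 9 (YPD against SC), 16 (*rpb1-S2A* against *ctk1*Δ), 34 (*sen1-1* against the *pcf11* mean) and 12 (*ctk1*Δ against *set2*Δ). These counts pool both directions, and the shares of all features by direction stand with each profile in the results. In *ctk1*Δ in SC, *set2*Δ, *eaf3*Δ, *rco1*Δ and *rtt103*Δ the members passed less often than all features in both directions. With a normexp offset of 10 the calls were 2 in *ctk1*Δ, 12 in *pcf11-2* and 1 in *sen1-1* against the *pcf11* mean (*RSM25*, −0.81), and the medians 0.508 in *pcf11-2*, 0.336 in *pcf11-ts2*, 0.336 in *rpb1-S2A* and 0.215 for *rpb1-S2A* against *ctk1*Δ. With median centring in place of loess the calls were 11 in *pcf11-2* and 3 in *rpb1-S2A*, and the medians 0.52 in *pcf11-2*, 0.366 in *pcf11-ts2*, 0.0834 in *ctk1*Δ in YPD, 0.0116 for YPD against SC, 0.246 for *rpb1-S2A* against *ctk1*Δ and −0.291 for *sen1-1* against the *pcf11* mean. With the processed ratios 3 were called in *rpb1-S2A*, and the medians were 0.0857 in *ctk1*Δ, 0.312 in *pcf11-ts2* and 0.265 in *rpb1-S2A*.

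The dye term is the replicate block, and without this replicate block the medians were 0.493 in *pcf11-2* and 0.334 in *pcf11-ts2*, the profiles of 1 array, while no count of calls moved by over 1.5 times. Over the large subunit the medians were 0.0374 in *ctk1*Δ, 0.0345 in *eaf3*Δ, 0.489 in *pcf11-2*, 0.266 in *pcf11-ts2*, 0.0924 in *ctk1*Δ in YPD, 0.245 in *rpb1-S2A* and 0.021 for *ctk1*Δ against *set2*Δ. Over the small subunit they were 0.108 in *ctk1*Δ, 0.068 in *rco1*Δ, 0.431 in *pcf11-2*, 0.12 in *sen1-1*, −0.158 in *rrp6*Δ, 0.171 in *ctk1*Δ in YPD and 0.391 in *rpb1-S2A*. Without *MRP8* they were 0.266 in *pcf11-ts2* and 0.264 in *rpb1-S2A*.

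Leaving out 1 array at a time gave 6 to 8 calls in *pcf11-2*, 4 to 5 in *rpb1-S2A*, 0 to 1 in *sen1-1* (0 without its replicate a) and 1 to 2 in *ctk1*Δ in YPD (2 without its replicate a). The medians ran from 0.0476 to 0.0758 in *ctk1*Δ, 0.000143 to 0.0464 in *rtt103*Δ and 0.0895 to 0.184 in *ctk1*Δ in YPD. In the contrasts they ran from 0.0193 to 0.103 (YPD against SC), 0.145 to 0.241 (*rpb1-S2A* against *ctk1*Δ) and 0.0398 to 0.0789 (*ctk1*Δ against *set2*Δ). *MRP49* in *lrp1*Δ was 0.208 without replicate a and changed sign without replicate b (−0.00067).

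A block for slide or scan date was not run, since the files used here give neither. No spread between wild type cultures is in any p-value, and each *pcf11* allele is 1 culture whose array is assumed to vary like the others.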
